A study of Sus scrofa with 32 samples.

Results

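HAMP, TF, TFRC, HPX and HP, genes of iron transport and haem scavenging, were measured in the livers of pig fetuses. They were chosen by name, and their probes were found through the transcript accession that the array design gives for each spot. All 5 genes were on the array, with 6 probes among 43603, and all 5 passed the filter on dim probes, among 28670 features tested.

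HAMP encodes hepcidin, the liver hormone that lowers iron entry into plasma by closing the iron exporter ferroportin. Transferrin carries iron in plasma, and TFRC, the transferrin receptor, brings it into cells, above all into red cell precursors and dividing cells. HP, haptoglobin, binds free haemoglobin, and HPX, hemopexin, binds free haem, both made by hepatocytes and released into plasma. The fetal liver is also the site of red blood cell formation for much of gestation, an activity that it loses before birth.

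Livers were taken at gestational days 37, 50, 70 and 110, the last close to term, from 4 control fetuses and 4 runts at each day. This gave 8 groups and 32 single-colour arrays, 1 per liver. All fetuses, controls included, grew in gilts that had lost 1 uterine horn and ovary by surgery, an operation that crowds the remaining horn. The labels give no breed, sex, weight or cut-off for a runt and name 4 pregnancies per day. They speak of littermate pairs in the labelling protocol without saying which arrays form a pair, and in places mark the days as PND where titles and the growth protocol say gestational.

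A level is given on the log2 scale, as the scanner's processed signal of a probe over the 75th percentile signal of its array, so that a spot exactly at the percentile has a level of 0. Levels of different probes are not comparable with each other. Across arrays 51.3% to 69.4% of spots were well above background, 0 spots were saturated and the 75th percentile lay at 177 to 460 intensity units. All 9 tested hepatocyte genes, among them ALB, AFP and TTR, were well above background on at least 1 array of every group. The arrays of a day sat at 1 and the same position of every slide, apart from 1 lone day 50 runt array on slide 9, so day and position cannot be told apart. That array was also scanned on a later date than all others. Slides 1 to 3 hold 12 arrays and slides 4 to 9 hold 20, and values within each set are given beside the main results. Slides 1 to 3 hold 1 control of day 37 and 1 of day 110, so control values between those days there set 1 array against 1 and are given with no p. They also hold 1 runt of day 50 and 1 of day 70, so runt values between those days there set 1 array against 1 too. Any other value there that uses such a group, each runt and control difference included, rests on 1 array for it. Precision is limited by the number of arrays, 4 in each group.

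Over the control course from day 37 to day 110 the liver's hepcidin signal rose and its transferrin receptor signal fell. By limma, with Benjamini-Hochberg adjustment at 0.05 and a minimum change of 2-fold, 2 of the 5 genes passed, HAMP higher and TFRC lower, against 29.3% of all features. At any fold all 5 passed, against 53.1% of all features, with HP and HPX higher and TF lower. In runts 3 of 5 passed, HAMP and HP higher and TFRC lower, against 27.1% of all features, and all 5 at any fold, against 50.0%. With normexp background correction HP, HPX and TF did not pass in controls at any fold (limma adjusted p = 0.106, 0.0877 and 0.120), nor TF in runts (adjusted p = 0.112). The median change of the 5 genes was 0.78 in controls and 0.74 in runts, and that of all features was -0.02 and 0.04.

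**Figure D1:**
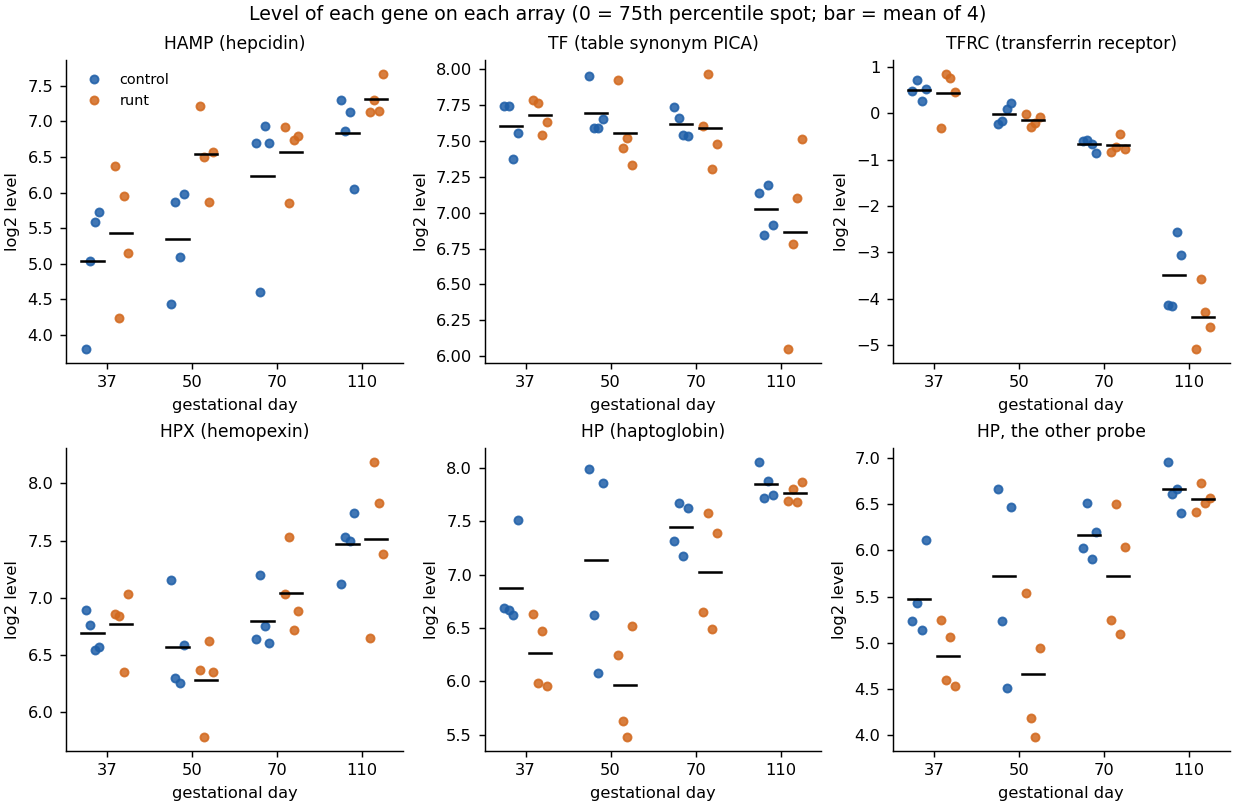
Level of each gene on each array (log2, 0 at the array's 75th percentile spot) against gestational day, with controls in blue, runts in orange and bars at the mean of 4 arrays. TFRC drops to between -5.08 and -2.57 at day 110, HAMP climbs to between 6.05 and 7.67, and the HP runts of day 50 lie at 5.48 to 6.52.

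HAMP (NM_214117), the hormone of the set, stood at 3.80, 5.04, 5.59 and 5.73 in the 4 control livers of day 37 and at 4.43, 5.86, 5.10 and 5.98 at day 50. At day 70 the controls read 6.69, 4.60, 6.94 and 6.70, and at day 110 they read 7.31, 6.87, 7.13 and 6.05. Every day 110 control lay above every day 37 control, while neighbouring days overlapped. HAMP rose 3.48-fold from day 37 to day 110, from 5.04 ± 0.88 to 6.84 ± 0.55 (SD, n = 4; log2 change 1.80, SE 0.50, limma adjusted p = 0.00339). No single step between neighbouring days passed, with changes of 0.30, 0.89 and 0.61 (limma adjusted p = 0.789, 0.189 and 0.405).

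The HAMP step from day 50 to day 70 turned on 1 liver. Without the day 70 control at 4.60 it was 1.43 and passed (limma adjusted p = 0.0296). The control rise was 2.29 within slides 4 to 9 (limma adjusted p = 0.00868) and 0.32 within slides 1 to 3.

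In runts HAMP read 6.37, 4.24, 5.95 and 5.15 at day 37 and 7.21, 6.50, 5.87 and 6.57 at day 50. The runts of day 70 read 6.92, 5.85, 6.73 and 6.80, and those of day 110 read 7.13, 7.29, 7.14 and 7.67. The day 110 runts again all lay above those of day 37. The rise from day 37 to day 110 was 3.69-fold (log2 change 1.88, SE 0.50, limma adjusted p = 0.00247). It was 1.86 within slides 1 to 3 (adjusted p = 0.0179) and 1.91 within slides 4 to 9 (adjusted p = 0.0722).

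Ordered by mean, HAMP was highest in the day 110 runts (7.31) and the day 110 controls (6.84). It was lowest in the day 37 controls (5.04), and the day 50 runts (6.54) stood between the day 70 runts (6.57) and the day 70 controls (6.23). All 7 neighbours in this order overlapped in range.

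TFRC (NM_214001), the receptor for iron-loaded transferrin, read 0.48, 0.72, 0.25 and 0.52 in the day 37 controls and -0.23, -0.18, 0.10 and 0.23 in those of day 50. At day 70 the controls read -0.60, -0.57, -0.67 and -0.85, and at day 110 they read -4.13, -4.16, -2.57 and -3.05. The ranges of successive days did not overlap, and the gap before day 110 was wide. From day 37 to day 110 TFRC fell 15.7-fold, from 0.49 ± 0.19 to -3.48 ± 0.80 (SD, n = 4; log2 change -3.97, SE 0.29, limma adjusted p = 1.42e-11). Most of this came between day 70 and day 110, where the fall was 6.98-fold (log2 change -2.80, limma adjusted p = 3.22e-08), and TFRC was the 1 of 5 genes past both thresholds there, against 12.4% of all features. The earlier steps of -0.51 and -0.65 did not pass (limma adjusted p = 0.309 and 0.102). For those steps 0 of 5 genes passed, against 3.41% of features from day 37 to day 50 and 7.69% from day 50 to day 70.

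The runts followed the same course. TFRC read -0.32, 0.85, 0.75 and 0.45 in runts of day 37, -0.02, -0.29, -0.22 and -0.08 in those of day 50, and -0.83, -0.72, -0.45 and -0.77 in those of day 70. The day 110 runts read -5.08, -3.57, -4.29 and -4.61, all below every earlier liver. Here 2 of the 4 arrays were well above background, so part of this group is read near the lower limit of the array. TFRC fell 28.3-fold from day 37 to day 110 (log2 change -4.82, SE 0.29, limma adjusted p = 3.93e-13) and 12.9-fold from day 70 to day 110 (log2 change -3.69, adjusted p = 1.99e-10), again the 1 gene of 5 in that step, against 11.1% of all features. Within slides 1 to 3 the TFRC change from day 37 to day 110 was -3.57 in controls and -5.05 in runts (limma adjusted p = 0.000207 in runts), and within slides 4 to 9 it was -4.10 and -4.59 (adjusted p = 2.33e-06 and 1.06e-05). From day 70 to day 110 it was -2.29 in controls and -3.68 in runts within slides 1 to 3, and -3.03 and -3.66 within slides 4 to 9. The size of the fall depended on the background correction. With normexp it was -2.27 in controls and -2.55 in runts from day 37 to day 110, and -1.47 and -1.73 from day 70, and it passed each time, with a limma adjusted p of at most 4.11e-06.

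Genes that mark red cell precursors and dividing cells fell over the same step. The mean level of 3 erythroid genes, HBE1 (an embryonic globin), RHCE (a Rh blood group protein) and EPOR (the erythropoietin receptor), ranged from 4.65 to 5.34 in day 37 controls, from 3.72 to 4.25 in day 70 controls and from -0.72 to 1.33 in day 110 controls. In runts it ranged from 3.80 to 4.48 at day 70 and from -1.11 to 0.26 at day 110. Of 16 erythroid genes listed only these 3 were found on the array. All 3 passed both thresholds as lower from day 37 to day 110 in controls, against 29.3% of all features called in either direction. Their median log2 change was -4.19, and HBE1 fell the most, with a change of -6.24 (limma adjusted p = 8.86e-14). The 5 proliferation genes CCNB1, CDK1, TOP2A, BIRC5 and AURKA, which drive or accompany mitosis, also all passed as lower from day 37 to day 110 in controls, against the same 29.3%. Their mean level went from between 3.04 and 3.53 in day 70 controls to between -0.28 and 1.34 in day 110 controls. The part of these cells in the fall of TFRC was not tested, and in bulk tissue fewer cells of a type and less RNA per cell cannot be told apart. The mean of the 9 hepatocyte genes ranged from 6.78 to 7.42 in day 37 controls and from 7.20 to 7.83 in day 110 controls.

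**Figure D2:**
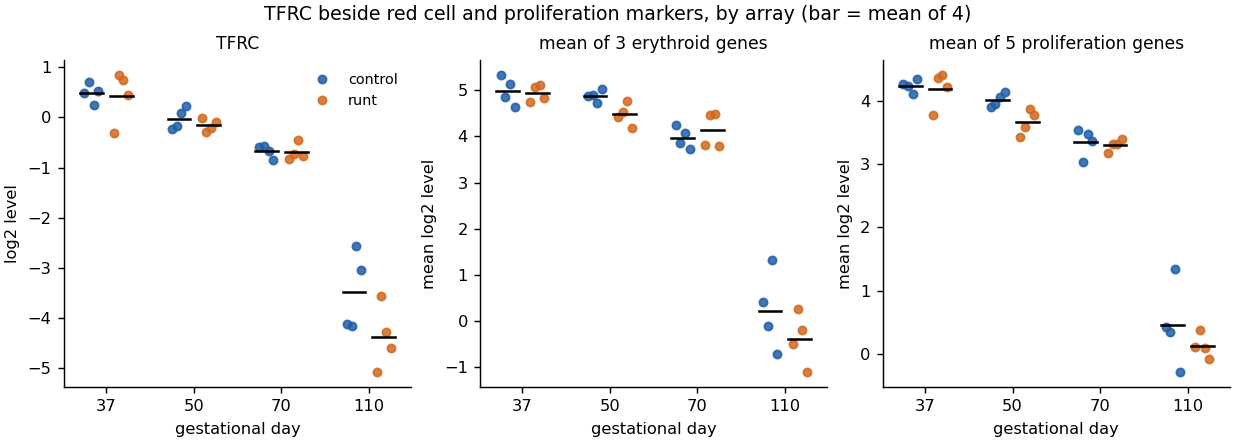
TFRC level (left, log2), mean log2 level of 3 erythroid genes (middle) and of 5 proliferation genes (right) on each array against gestational day, controls in blue, runts in orange, bars at the mean of 4. All 3 panels show a slow decline to day 70 and a large drop to day 110, where TFRC lies between -5.08 and -2.57.

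The probe named TF needs care. It matched NM_213847, whose gene carries the synonym PICA in the RefSeq annotation Sscrofa11.1, a name given in the pig to a transferrin relative that inhibits carbonic anhydrase. That annotation holds another gene with the symbol TF directly beside it, NM_001244653, which matched 0 probes. The values below therefore belong to this probe, and the plasma iron carrier itself may not be what it reads.

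TF (synonym PICA) read 7.74, 7.74, 7.38 and 7.55 in controls of day 37, 7.95, 7.59, 7.59 and 7.65 at day 50, and 7.74, 7.66, 7.54 and 7.53 at day 70. At day 110 the controls read 7.14, 6.84, 7.19 and 6.91, all below every earlier control. The fall from day 70 to day 110 was -0.60 (SE 0.20, limma adjusted p = 0.0282) and from day 37 to day 110 -0.58 (adjusted p = 0.0171), both under 2-fold. Within slides 1 to 3 these TF changes were -0.62 and -0.64, and within slides 4 to 9 they were -0.64 and -0.56.

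In runts TF read 7.78, 7.76, 7.54 and 7.63 at day 37, 7.93, 7.45, 7.52 and 7.33 at day 50, and 7.60, 7.97, 7.30 and 7.48 at day 70. At day 110 the runts spread widely, at 6.05, 6.78, 7.11 and 7.51, and the highest of them overlapped the day 70 runts. The fall was -0.72 from day 70 (limma adjusted p = 0.00865) and -0.82 from day 37 (adjusted p = 0.00134). It was -1.36 from day 37 within slides 4 to 9 (adjusted p = 0.00124) and -0.28 within slides 1 to 3 (adjusted p = 0.348), and from day 70 it was -1.21 and -0.17. Without the day 110 runt at 7.51 the fall from day 37 was -1.03 and passed the 2-fold limit (adjusted p = 7.035e-05). The group means kept close together from day 37 to day 70, between 7.56 and 7.70, and the gap to the day 110 controls (7.02) was the only one between neighbours in the order without overlap.

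HPX (NM_213953), the haem scavenger, read 6.89, 6.77, 6.55 and 6.57 in controls of day 37, 7.16, 6.30, 6.25 and 6.59 at day 50, and 6.64, 7.20, 6.75 and 6.61 at day 70. At day 110 the controls read 7.12, 7.53, 7.50 and 7.74, above every day 37 control. The rise from day 37 to day 110 was 1.71-fold, under the 2-fold limit (log2 change 0.78, SE 0.26, limma adjusted p = 0.0134). Slides 1 to 3 alone gave 1.17 and slides 4 to 9 alone 0.65 (adjusted p = 0.147 in the latter).

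The HPX runts read 6.86, 6.84, 6.36 and 7.04 at day 37, 6.37, 5.79, 6.63 and 6.35 at day 50, and 7.04, 7.53, 6.72 and 6.88 at day 70. Those of day 110 read 6.65, 8.19, 7.83 and 7.39, with the lowest inside the range of day 37. Runts rose by 0.76 from day 50 to day 70, where the ranges did not overlap (limma adjusted p = 0.0314), and by 0.74 from day 37 to day 110 (adjusted p = 0.0192), both under 2-fold. Slides 1 to 3 alone gave 0.53 (1 array against 1) and 0.91 for these HPX rises, and slides 4 to 9 alone 0.84 and 0.57. Without the day 110 runt at 6.65 the second rise was 1.03 and passed the 2-fold limit (adjusted p = 0.00104). In the order of group means, from the day 110 runts (7.51) to the day 50 runts (6.28), all 7 neighbours overlapped.

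HP (NM_214000), the haemoglobin scavenger and an acute phase protein, had 2 probes. On the brighter one the day 37 controls read 6.69, 6.67, 6.62 and 7.51, those of day 50 7.99, 6.62, 6.08 and 7.86, and those of day 70 7.31, 7.67, 7.17 and 7.62. The day 110 controls read 8.06, 7.72, 7.88 and 7.75, a narrow band above all day 37 and day 70 controls, whereas the day 50 controls fell into a high and a low pair. HP rose 1.97-fold from day 37 to day 110 (log2 change 0.98, SE 0.32, limma adjusted p = 0.0132), just under the 2-fold limit. On the other probe the rise was 1.18 and passed (adjusted p = 0.0103). It also passed without the day 37 control at 7.51 (1.19, adjusted p = 0.00515), without the day 110 control at 7.72 (1.02, adjusted p = 0.0200) and without the one at 7.75 (1.01, adjusted p = 0.0214). Within slides 4 to 9 it was 1.22 (adjusted p = 0.00786) and within slides 1 to 3 0.24.

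In runts HP read 6.63, 5.99, 6.47 and 5.96 at day 37, 6.25, 5.63, 5.48 and 6.52 at day 50, and 6.65, 7.58, 6.49 and 7.39 at day 70. At day 110 the runts read 7.69, 7.81, 7.68 and 7.87, above all earlier runts. HP rose 2.82-fold from day 37 to day 110 (log2 change 1.498, SE 0.32, limma adjusted p = 0.000373), by 1.44 within slides 4 to 9 (adjusted p = 0.0139) and 1.56 within slides 1 to 3 (adjusted p = 0.0809). The rise from day 50 to day 70 was 1.06 (limma adjusted p = 0.0177), which made HP the 1 gene of 5 past both thresholds in that step, against 7.96% of all features. That call was lost without any 1 of 4 runt livers, the day 50 runts at 5.63 and 5.48 or the day 70 runts at 7.58 and 7.39 (0.87 to 0.94), and with the authors' deposited values (0.79, adjusted p = 0.119). From day 37 to day 50 in runts 0 of 5 genes passed, against 5.82% of all features.

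Runts and controls were then compared at each day, the question of growth restriction in the series' title. By limma 0 of 5 genes passed an adjusted p of 0.05 at day 37, against 0% of all features, at day 50, against 0.0663%, at day 70, against 0%, or at day 110, against 0.0140%. For the mean difference over the 4 days it was again 0 of 5, against 0.244%, and for a difference of the runt effect between days 0 of 5, against 0.00349% (F-test, adjusted p = 1.00 for each gene). At an unadjusted p under 0.05, HAMP and HP were past it at day 50 and in the mean difference, and TFRC at day 110. On every day the ranges of runts and controls overlapped for each of the 5 genes.

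**Figure D3:**
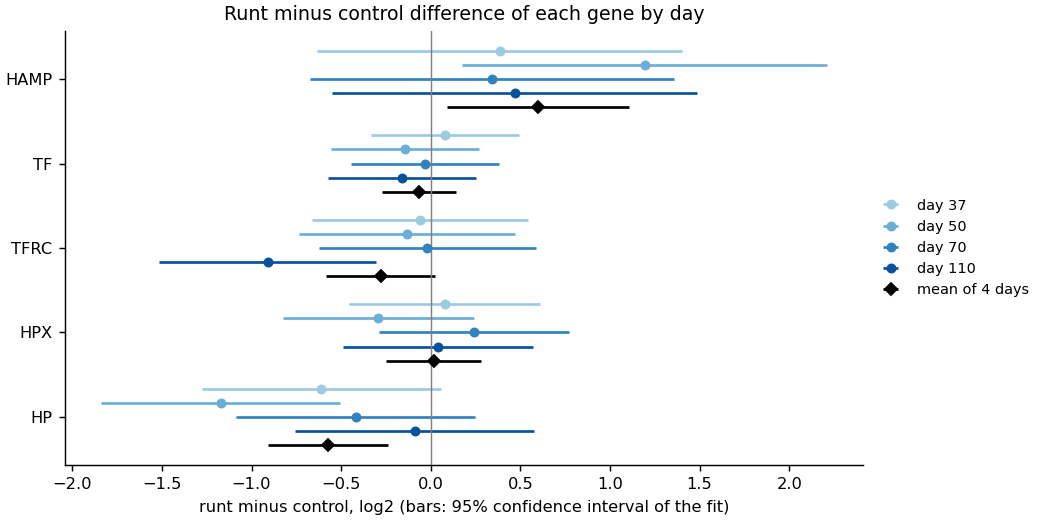
Runt minus control difference (log2) of each gene on each day and over the 4 days, with the 95% confidence interval of the limma fit. HP lies below 0 on all 4 days, from -1.17 to -0.09, HAMP above 0 on all 4, from 0.34 to 1.19, and the intervals of HPX and TF hold 0 throughout.

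HP was lower in runts on each day, by -0.61, -1.17, -0.42 and -0.09. At day 50 the runts read 5.48 to 6.52 and the controls 6.08 to 7.99, and the difference of -1.17 had a 95% interval from -1.84 to -0.50 (limma adjusted p = 0.204). The mean difference was -0.57 (SE 0.16, interval -0.91 to -0.24, limma adjusted p = 0.139), and -0.55 on the other probe (adjusted p = 0.274). Slides 1 to 3 alone gave -0.43 and slides 4 to 9 alone -0.65. Without the day 50 control at 6.08 the mean difference was -0.66 and passed (adjusted p = 0.0428). Among the 16 control and runt livers of the same day and replicate number HP was lower in the runt in 14, and in 13 on the other probe, though the labels, which speak of littermate pairs, do not say that a number marks one. With normexp background correction HP passed at day 50 (-1.83, limma adjusted p = 0.0430), TF (-0.85) and HPX (-0.998) passed with it, and that setting also called 10974 of all features and moved their median by 0.36.

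Among 9 acute phase genes 1 passed between runts and controls at day 50, against 0.0663% of all features, with a median difference of -0.31. For the mean difference over the 4 days 2 of the 9 passed, as lower, against 0.244% of all features, with a median of -0.12. The mean level of these genes, C3, CD14, CRP, IL6R, ITIH4, LBP, PIGR, SAA3 and STAT3, ranged from -1.002 to -0.39 in the day 50 runts and from -0.34 to 0.12 in the controls, with no overlap. PIGR was never well above background in either of these groups. STAT3 was higher in the runts, at -1.57 against -2.05. LBP, which binds bacterial lipopolysaccharide, was lower in day 50 runts, with a log2 difference of -2.44 (limma adjusted p = 0.00464), the 1 of 9 that passed on that day. The differences of SAA3 (-2.005) and C3 (-1.78) had limma adjusted p = 0.147 and 0.132. The hepatocyte mean ranged from 6.93 to 7.88 in day 50 runts and from 6.99 to 7.67 in the controls. For ALB the log2 difference of runts from controls was -2.73 (limma adjusted p = 0.0663). Of the 9 hepatocyte genes 0 passed at day 50. For the mean difference over the 4 days 1 passed, as lower, while the median of the 9 was 0.19. Haptoglobin is also stored in granulocytes, and the mean of 5 granulocyte genes ranged from 2.62 to 3.91 in day 50 runts and from 1.55 to 3.63 in controls. Their part in the HP values was not tested.

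**Figure D4:**
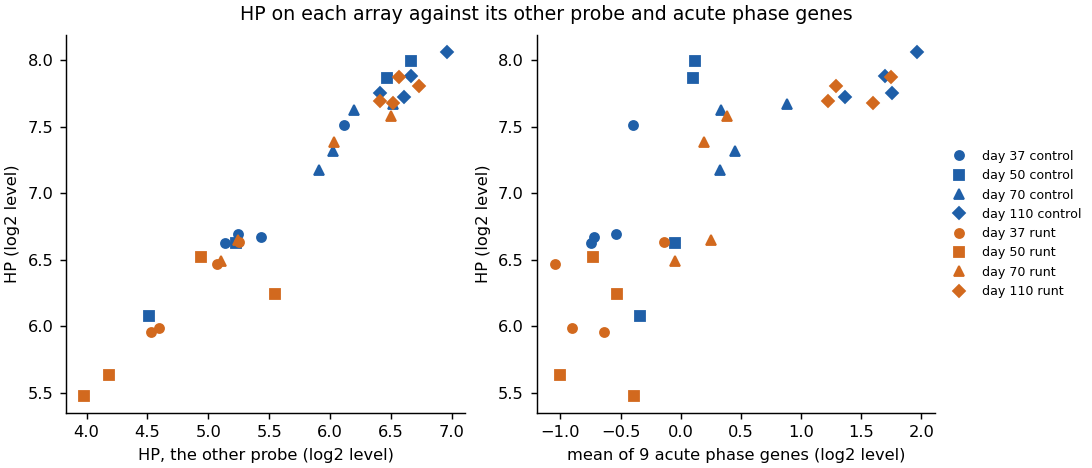
HP level on each of the 32 arrays (log2) against its other probe (left) and against the mean log2 level of 9 acute phase genes (right), with shape for the day and colour for the group. The probes rise together, and 2 day 50 controls with HP at 7.86 and 7.99 stand above arrays of like acute phase level.

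HAMP was higher in runts on each day, by 0.38, 1.19, 0.34 and 0.47. At day 50 it read 7.21, 6.50, 5.87 and 6.57 in runts against 4.43, 5.86, 5.10 and 5.98 in controls, so 3 of 4 runts lay above every control. The runt at 7.21 is the lone array on slide 9, scanned on a later date. The difference of 1.19 had an interval from 0.18 to 2.21 (limma adjusted p = 0.558). It was 1.03 from slides 1 to 3 alone, which hold 1 runt of that day, and 1.38 from slides 4 to 9 alone. The mean difference was 0.60 (SE 0.25, interval 0.09 to 1.11, limma adjusted p = 0.426), with 0.54 from slides 1 to 3 alone and 0.71 from slides 4 to 9 alone, and HAMP was higher in the runt in 12 of 16 livers of the same day and number. HP and HAMP thus stood on opposite sides of 0 on all 4 days, without either passing the test. Both are known targets of interleukin 6 signalling, whose part in these values was not tested. Leaving out 1 array took HAMP as low as -0.029 at day 37 and -0.20 at day 70. Within slides 1 to 3, HAMP was at -0.18 at day 37 and -0.023 at day 70, and HP at 0.027 at day 110.

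For the other genes the intervals bound what could be seen. TFRC differed by -0.06, -0.13 and -0.02 on the first 3 days and by -0.91 at day 110 (interval -1.51 to -0.31, limma adjusted p = 0.847), where the erythroid mean ranged from -1.11 to 0.26 in runts and -0.72 to 1.33 in controls. The mean differences were -0.28 for TFRC (interval -0.58 to 0.02), -0.06 for TF (-0.27 to 0.14) and 0.02 for HPX (-0.25 to 0.28). A mean difference of 2-fold lies outside each of these intervals.

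Genes of the same pathways were taken from 3 lists, of which 20 genes are given here because few probes of the array carry a symbol. Among genes that regulate hepcidin, 7 of 28 listed were tested. In controls from day 37 to day 110 2 rose, 1 fell and 4 did not pass, against 29.3% of all features called. The median change of these 7 genes was 0.68. IL6, the cytokine that induces hepcidin in inflammation, rose from -6.44 ± 1.26 (SD, n = 4), where 1 of 4 arrays was above background, to -3.64 ± 0.24 on 4 of 4 (limma adjusted p = 0.000122). The measured difference of 2.80 rests on day 37 readings mostly not above background, so its size is uncertain. STAT3, which carries its signal to the nucleus, rose by 1.10 (adjusted p = 0.00437), while its other probes gave 0.91 and -0.57. JAK2, the kinase upstream of STAT3, fell 2.26-fold, from -0.05 ± 0.20 to -1.23 ± 0.20 (adjusted p = 1.59e-06). SMAD1 (0.68) and SMAD4 (0.03), which transmit the BMP signal to HAMP, and the interleukin 6 receptor chains IL6ST (0.69) and IL6R (0.28) did not reach 2-fold.

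Among genes of iron uptake, storage and export, 8 of 29 were tested, and 1 rose, 1 fell and 6 did not pass, against 29.3% of all features called. STEAP4 and STEAP1 belong to 1 family of membrane metalloreductases and moved in opposite directions. STEAP4 rose 8.78-fold, from -4.28 ± 0.58 (SD, n = 4), above background on 2 of 4 arrays, to -1.15 ± 0.17. STEAP1 fell 27.6-fold, from 0.19 ± 0.19 to -4.60 ± 0.19, above background on 3 of 4 arrays at day 110. FTH1, the ferritin heavy chain that stores iron, changed by -0.24, from a level of 9.39 to 9.15, and its 9 other probes changed by -1.02 to -0.12. The iron regulatory protein IREB2 (-0.01), the ferric reductase CYBRD1 (-0.92), lactoferrin LTF (0.62) and the hypoxia factors HIF1A (-0.68) and EPAS1 (0.42) did not pass either.

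Among genes of haem synthesis, transport and breakdown, 5 are given here, of which 2 rose and 3 did not pass, against 29.3% of all features called. ALAS1, which starts haem synthesis in hepatocytes and other non-erythroid cells, rose 2.64-fold, from 0.80 ± 0.40 to 2.20 ± 0.25 (SD, n = 4; limma adjusted p = 4.10e-06). CD163, the macrophage receptor that takes up haptoglobin bound to haemoglobin, rose 2.19-fold, from 3.61 ± 0.52 to 4.74 ± 0.18 (limma adjusted p = 0.000257). Its other probes gave 0.88 and 0.80, both under 2-fold. The mean of 6 Kupffer cell and monocyte genes, CD163 among them, ranged from -0.49 to 0.47 in day 37 controls and from 1.58 to 1.70 in day 110 controls, and the share of these cells was not tested. HMOX1, the haem oxygenase (-0.27), the haem exporter ABCG2 (-0.27) and AMBP, precursor of the haem-binding alpha-1-microglobulin (0.74), did not pass.

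**Figure D5:**
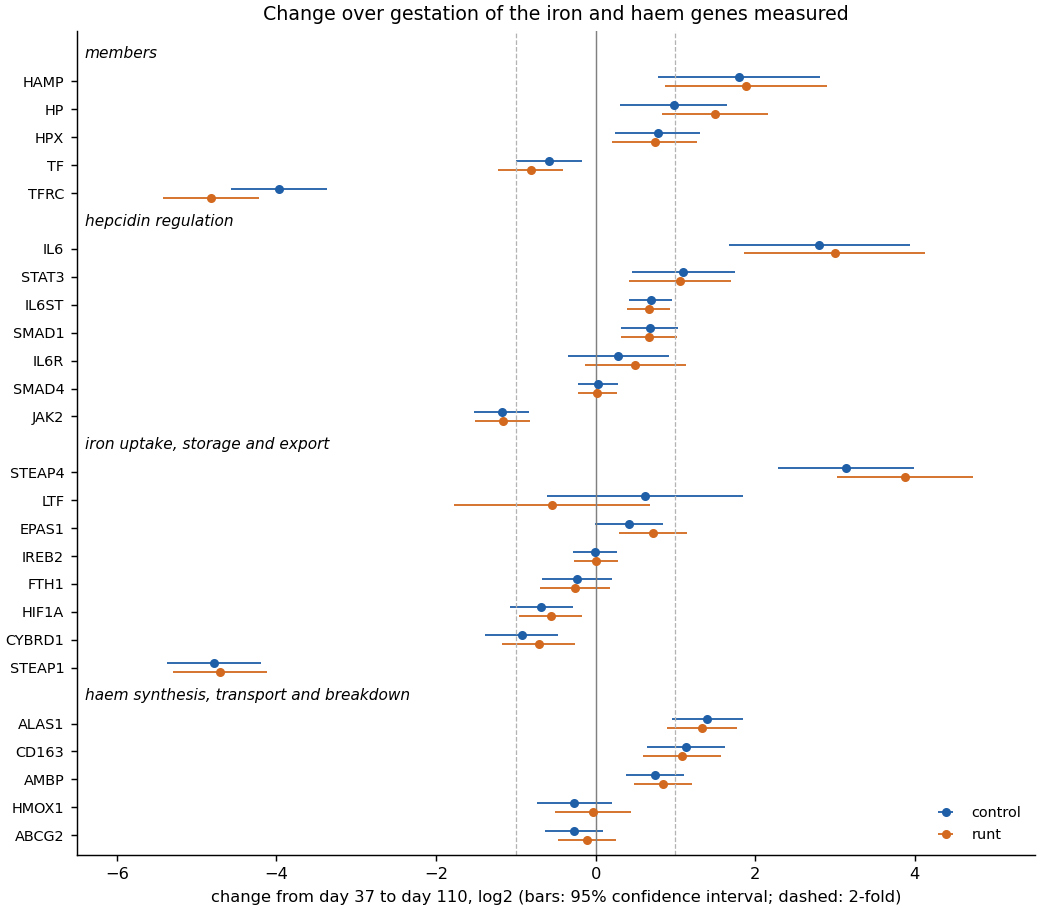
Change from day 37 to day 110 (log2, with the 95% confidence interval of the limma fit) of the 5 genes and 20 tested genes of the 3 lists, controls in blue and runts in orange, dashed lines at 2-fold. STEAP1 and TFRC lie farthest to the left, STEAP4 and IL6 farthest to the right, and each called gene has the same sign in both kinds of fetus.

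In runts the same course gave 2 higher, 1 lower and 4 not passed for hepcidin regulation, 1, 1 and 6 for iron handling and 2 higher and 3 not passed for haem. Of all features 27.1% were called in that course. IL6 was above background on 0 of 4 day 37 runt arrays and rose at least 3.93-fold, against the lowest signal well above background. STEAP1 fell 26.2-fold in runts. In the comparisons of runts with controls, on each day and over the 4 days, 0 of these 20 genes passed, against at most 0.244% of all features.

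The genes most like each of the 5 over the 8 group means, of 1595 compared, were named by Pearson's r as a description. For TFRC they were CCNB1 (0.997), a mitotic cyclin, HMGB2 (0.997), a chromatin protein, and CHEK2 (0.996), a DNA damage kinase. For HP they were CES1 (0.964), a liver esterase, LBP (0.957) and the T cell and macrophage receptor CD4 (0.950). For HAMP they were RRP36 (0.972), FGF9 (0.971), whose lowest group mean was -6.75, and STAT3 (0.969). For HPX they were NDRG2 (0.980), HYAL2 (0.979) and RXFP4 (0.973), and for TF STK26 (0.995), PHACTR3 (0.994) and TSPO (0.992).

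Within groups, after each group's mean was removed, livers with more HAMP had less HPX. Over the 32 arrays r was -0.46 (permutation within groups, two-sided p = 0.00341, adjusted p = 0.0341 over 10 pairs of genes) and rho -0.46 (p = 0.0113, adjusted p = 0.0788). Without the 2 arrays farthest from the median of HAMP r was -0.41. It was -0.38 in the 8 arrays of slides 1 to 3 that share a group there and -0.41 in the 20 arrays of slides 4 to 9. For TF and HPX r was 0.51 (adjusted p = 0.265), with -0.26 in slides 1 to 3 and 0.73 in slides 4 to 9. None of the 8 other pairs passed, HAMP with HP at 0.10 and HPX with HP at 0.29 among them (adjusted p = 0.640 and 0.314).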

How the data were processed

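Liver RNA of 32 fetuses was labelled with Cy3 and hybridised to single-colour Agilent arrays. Per the file headers, Agilent Feature Extraction 10.7.3.1 gave each spot a background-subtracted intensity. A table of log2 values was deposited by the authors too, with Partek named in the submitters' processing notes. Its columns had medians of 5.15, its direction and scale followed the log2 processed signal at r of 0.993 to 1.00, and its normalization is not given in the sources used here. It served as an alternative.

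Of 45220 spots, 43803 were no controls, and outlier spots were left out. Spots of 1 probe were averaged. A probe was tested when well above background on at least 3 of 4 arrays of at least 1 group. Names came from the design's accessions, matched without versions to the RefSeq annotation Sscrofa11.1 (2683 of 43603 probes, 1904 symbols). The probe with the highest mean stood for a gene. A model with 1 mean per group was run in limma 3.58.1 under R 4.3.3 on 28670 features, with 24 residual degrees of freedom and 248 missing values, 0 of them in the 5 genes. Tests were two-sided, with Benjamini-Hochberg adjustment over all features. The labels name 4 pregnancies per day but do not tie each array to one. The p-values therefore treat all livers as independent samples, although some may be littermates. A fold against a group with 0 arrays above background is a lower bound.

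The 5 genes, the 3 pathway lists and the marker lists were chosen with earlier results of these data known. Named genes of a list were those past both thresholds in controls from day 37 to day 110, at most 4 per direction, with the others given by value. The normexp alternative used median signals, since the files read hold no mean signal. The fit was tested on simulated data. No genome position is given. One listed gene is not reported here, and its list is counted without it.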

Additional observations from a re-analysis of the deposited data

Results flagged for a closer look

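Of 40 groups of 4 arrays, 4 held 1 array far from the other 3 by Dixon's criterion, where chance gives about 1 in 20 groups. HAMP stood at 4.60 in day 70 control replicate 2, against 6.69 to 6.94 in the other 3 controls. It stood at 5.85 in day 70 runt replicate 2, against 6.73 to 6.92 in the other 3 runts. HP stood at 7.51 in day 37 control replicate 4, against 6.62 to 6.69 in the others, and TF at 7.95 in day 50 control replicate 1, against 7.59 to 7.65.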

How the results depend on the processing

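The falls of TFRC and the rises of HAMP, HP and HPX from day 37 to day 110 kept their direction under every alternative run, as did the fall of TF, though the TFRC fall shrank with normexp, to -2.27 in controls and -2.55 in runts. Counts of called genes moved as follows. Without the 2-fold limit, the counts of the 5 genes were 2 and 5 in controls (day 70 to 110 and day 37 to 110) and 2, 2 and 5 in runts (day 50 to 70, 70 to 110 and 37 to 110). With slides 1 to 3 alone the count was 2 for runts from day 37 to day 110, where HP (1.56, limma adjusted p = 0.0809) was lost, and HAMP in controls was at 0.32. With slides 4 to 9 alone it was 2 for runts from day 70 to day 110 and 3 for controls from day 37 to day 110. In runts from day 37 to day 110 slides 4 to 9 kept a count of 3, with HAMP lost (limma adjusted p = 0.0722) and TF gained (adjusted p = 0.00124). The other probe of HP gave 3 for controls from day 37 to day 110. The deposited values and quantile normalization each gave 0 for runts from day 50 to day 70. Normexp gave 1 for runts from day 37 to day 50, 3 for runts against controls at day 50 and 1 for their mean difference. It moved the median of all features by 0.36 at day 50 and 0.18 in the mean, and the cause was not tested. Leaving out 1 array gave counts of 0 to 1 for controls from day 50 to day 70, for runts from day 50 to day 70 and for the mean difference, 2 to 3 for controls and 3 to 4 for runts from day 37 to day 110. The replicate block turned on the numbers: 13 of 16 pairs of same-numbered livers correlated over 0.1 (range -0.09 to 0.42) and 8 of 16 matched their own number best. At days 37 and 110 all 4 pairs were over 0.1, and at days 50 and 70 not all were. The pairs with replicate number 4 all lay on slides 2 and 3, with r of 0.42, 0.42, 0.31 and 0.19 at days 37, 50, 70 and 110. Shared litters and shared sets of slides therefore cannot be told apart, and neither was tested. The report is given without the block. With the replicate block the mean difference gave 1 called gene, both as a random and as a fixed block, HP at -0.57 (limma adjusted p = 0.0399 and 0.0352), and the block changed the count of the 5 genes in no other comparison.

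No change that turned sign had passed in the full set of arrays. Most lay near 0, while HAMP in controls from day 70 to day 110 went from 0.61 to -0.77 and HP in controls from day 37 to day 50 from 0.27 to -0.54, both within slides 1 to 3. With the deposited values HAMP and TF in runts from day 50 to 70 were -0.17 and -0.19, and HPX was -0.021 at day 110 and -0.027 in the mean difference. Quantile normalization gave -0.19, -0.21, -0.019 and -0.022 for the same results. With normexp, TF was -0.14 and HPX -0.12 between runts and controls at day 37, TFRC was 0.12, 0.072 and 0.094 at days 37, 50 and 70 and 0.031 in the mean, and HPX was -0.035 at day 70 and -0.28 in the mean. With slide as a fixed block TF was -0.069 in controls from day 37 to 50 and 0.19 in runts at day 70, TFRC was 0.092 at day 37 and HPX -0.014 in the mean, and with slide as a random block TFRC was 0.00034 at day 37 and TF 0.049 at day 70. Within slides 1 to 3, HAMP was -0.19 (controls, day 37 to 50), the -0.77 above (controls, day 70 to 110), -0.18 (runts at day 37) and -0.023 (runts at day 70). HP was the -0.54 above, 0.30 (runts, day 37 to 50) and 0.027 (runts at day 110). There TFRC was 0.082 in runts at day 37, TF 0.39 at day 110 and 0.0195 in the mean, and HPX -0.13 at day 110. Within slides 4 to 9, HAMP and TF in runts from day 50 to 70 were -0.026 and -0.0076, TFRC in runts at day 50 was 0.029 and HPX in the mean -0.037. The cause was not tested.

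Leaving out 1 array at a time also turned signs. In controls from day 37 to 50 HAMP ranged from -0.11 to 0.61 and HP from -0.018 to 0.62, and from day 50 to 70 HP ranged from -0.048 to 0.59 and TF from -0.12 to 0.0067. In runts from day 50 to 70 HAMP ranged from -0.18 to 0.28 and TF from -0.095 to 0.16. Between runts and controls HAMP ranged from -0.029 to 0.78 at day 37 and from -0.20 to 0.58 at day 70. TFRC ranged from -0.20 to 0.19 at day 37 and from -0.10 to 0.028 at day 70, and TF from -0.16 to 0.065 at day 70, from -0.38 to 0.11 at day 110 and from -0.12 to 0.0042 in the mean. HPX ranged from -0.0099 to 0.22 at day 37, from -0.18 to 0.33 at day 110 and from -0.040 to 0.088 in the mean. TFRC at day 110 was the reading nearest to background, above it on 2 of 4 runt arrays.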
